A study of Mus musculus with 4 samples.

Results

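The genes described here encode the nuclear subunits of oxidative phosphorylation, the set of 5 protein complexes in the inner mitochondrial membrane that pass electrons from food to oxygen and make ATP. They were chosen by name: a probe was taken if its RefSeq accession belonged to a gene whose symbol starts with Ndufa, Ndufb, Ndufc, Ndufs or Ndufv and a digit (complex I), is Sdha to Sdhd (complex II), starts with Uqcr (complex III), runs from Cox4 to Cox8 (complex IV) or starts with Atp5 (complex V), pseudogene entries ending in -ps left out. This gave 83 genes on 103 probes, of 18217 genes with a symbol and 41174 probes on the array. By complex there were 36 genes of complex I, 4 of complex II, 8 of complex III, 18 of complex IV and 17 of complex V.

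RNA came from Hepa1c1c7, a mouse hepatoma cell line kept as a monoculture. The groups were cells given 100 µM diethyl maleate (DEM) for 6 hours, with 2 samples, and cells given the solvent dimethyl sulfoxide (DMSO) for 6 hours, with 2 samples. DEM is an electrophile that binds glutathione and, per the series title, was used to activate Nrf2, the transcription factor encoded by Nfe2l2 that drives antioxidant genes. The submitters describe independent RNA samples but do not state whether each came from its own culture. The p-values therefore rest on a spread that may be technical.

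Complex I takes electrons from NADH and complex II from succinate, both hand them to ubiquinone, complex III passes them to cytochrome c, complex IV delivers them to oxygen, and complex V uses the resulting proton gradient to make ATP. Most subunits are encoded in the nucleus and have to be made in step with the few that mitochondrial DNA encodes. In mammals, nuclear respiratory factor 1 (NRF1, a different protein from Nrf2), the ETS factor GABP and YY1 are known to bind many of these promoters, and the coactivators of the PGC-1 family act through such factors.

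Promoter sequence is shown because binding motifs of these factors were searched in it. Of the 83 genes, 68 had an entry in the RefSeq promoter table (build GRCm38.p6), with 73 promoters of 300 bases that run from 250 bases before to 50 bases after the start. The NRF1-type motif, searched as GCGC, any base, then TGCGC, or the reverse complement of this, was present in 18 of the 73 promoters (24.7%), against 4.60% of all 32851 promoters of that length. The ETS-type motif CCGGAAG, on either strand, was present in 17 (23.3%), against 8.86% of all promoters. The YY1-type motif AANATGGCG was present in 10 (13.7%), against 2.38%. The core of the antioxidant response element bound by Nrf2, searched as TGACNNNGC, was present in 10 (13.7%), against 12.4%. At least 1 match of the NRF1, ETS or YY1 type was present in 39 of the 73 (53.4%), against 14.2% of all promoters, so that many member promoters held none of these letters. Matches of different motifs shared bases in 0 of the 73 promoters, and G and C made up 57.5% of their bases, against 53.8% in all promoters. A match is a run of letters in this window and does not show that the factor binds there.

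**Figure D1:**
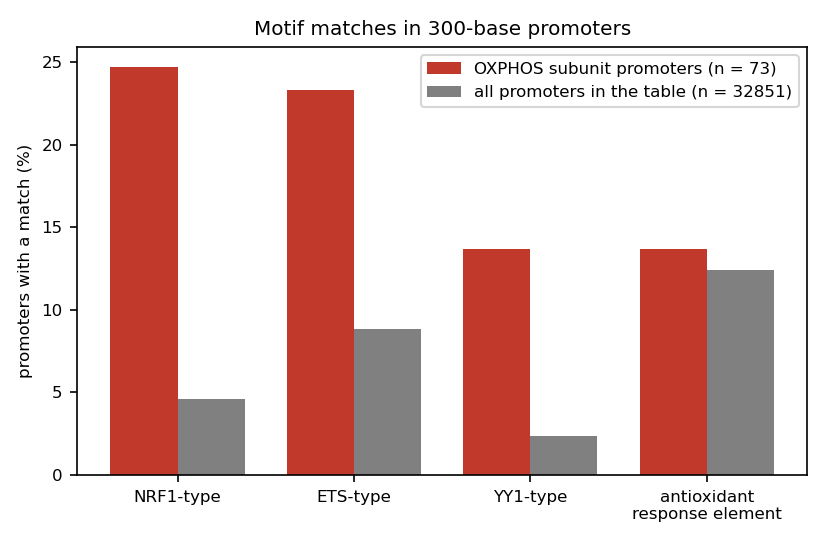
Share of promoters (%) with at least 1 match of each motif on either strand, for 73 promoters of the oxidative phosphorylation genes (red) and all 32851 promoters in the table (grey). The red bars stand at 24.7%, 23.3% and 13.7% for the NRF1, ETS and YY1 types, against 4.60%, 8.86% and 2.38%, while for the antioxidant response element 13.7% stands beside 12.4%.

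The promoters below belong to Ndufa8, the member with the highest log2 change, to Cox6a1, the ubiquitous partner of the dim muscle isoform gene Cox6a2 that had the lowest, and to Atp5o, the member with the highest log2 change among those with an antioxidant response element match. Capitals mark the matches. Ndufa8 lies at chr2:36049289-36049588 on the minus strand and has 1 NRF1-type match that begins at position −30 relative to the start. Cox6a1 lies at chr5:115348909-115349208 on the minus strand, with NRF1-type matches that begin at −162 and −117 and an ETS-type match that begins at −16. Atp5o lies at chr16:91931581-91931880 on the minus strand, with an antioxidant response element match that begins at −182 and an NRF1-type match that begins at 10. All 3 come from RefSeq on GRCm38.p6 and run 5′ to 3′.
Ndufa8: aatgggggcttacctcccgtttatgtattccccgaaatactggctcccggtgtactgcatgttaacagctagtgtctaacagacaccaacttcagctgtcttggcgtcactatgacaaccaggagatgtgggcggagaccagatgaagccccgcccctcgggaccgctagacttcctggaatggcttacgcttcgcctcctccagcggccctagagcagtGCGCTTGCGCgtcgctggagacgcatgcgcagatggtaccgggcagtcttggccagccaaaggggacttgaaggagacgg
Cox6a1: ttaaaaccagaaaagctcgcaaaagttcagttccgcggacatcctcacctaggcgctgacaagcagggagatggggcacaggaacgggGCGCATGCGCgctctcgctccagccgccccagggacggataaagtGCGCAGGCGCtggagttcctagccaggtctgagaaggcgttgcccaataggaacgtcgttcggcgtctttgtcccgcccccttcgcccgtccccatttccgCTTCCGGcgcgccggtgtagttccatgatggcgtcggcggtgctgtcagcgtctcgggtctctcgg
Atp5o: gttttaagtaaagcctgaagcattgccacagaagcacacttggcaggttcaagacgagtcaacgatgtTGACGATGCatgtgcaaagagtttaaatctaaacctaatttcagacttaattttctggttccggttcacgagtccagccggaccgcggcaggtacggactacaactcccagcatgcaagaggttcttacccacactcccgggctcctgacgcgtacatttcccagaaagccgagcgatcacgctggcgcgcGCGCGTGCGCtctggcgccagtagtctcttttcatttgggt

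The scanner's flag put 20744 to 21659 of 41174 probes per array well above background and 0 spots at saturation. Values below are scaled signals, the scanner's processed signal in arbitrary fluorescence units after each array was brought to the same 75th percentile. The treatment was visible in its known targets: Hmox1, which breaks down haem, had scaled signals of 133600 and 150600 in DEM, against 6555 and 5610 in DMSO, and Nqo1, a quinone reductase, had 8276 and 7930 in DEM, against 1674 and 1508 in DMSO. Gclm, a subunit of the enzyme that starts glutathione synthesis, had 997 and 1014 in DEM, against 268 and 233.5 in DMSO, and the cystine importer gene Slc7a11 had 1026 and 1215 in DEM, against 33.5 and 29.6 in DMSO. Of 10 hepatocyte and hepatoma markers with a probe, Afp, Alb, Apoe, Krt8, Krt18 and Trf were well above background on all 4 arrays, while Ttr, Apoa1 and Hnf4a were so on 0. Fibroblast and stellate markers above background on all 4 arrays were 4 of 6, with a summed scaled signal of 35610 and 42720 in DEM, against 40550 and 45950 in DMSO, and their part in the results was not tested. Above background on all 4 arrays were also 2 of 4 macrophage and leukocyte markers (summed 3175 and 2469 in DEM, against 3058 and 2690 in DMSO; Adgre1 on 0), 1 of 4 endothelial markers (52.8 and 53.5 in DEM, against 62.7 and 58.9 in DMSO; Pecam1, Cdh5 and Kdr on 0) and 0 of 3 muscle markers.

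Transcripts of nearly all oxidative phosphorylation subunits were detected, and under the reported scaling the measured differences between DEM and DMSO were small. Testing required a probe that 2 or more of the 4 arrays placed above background, which held for 80 of the 83 genes, and 79 were well above background on all 4 arrays (95.2%, against 57.9% of all genes with a symbol). Of the 80, limma with Benjamini-Hochberg adjustment over all 15537 genes tested (threshold 0.05) called 0, higher or lower, where the background was 1.22% (0.714% higher and 0.508% lower, 111 and 79 genes). Of the 15537, 10953 had a symbol. The rest were array entries without one, each counted as a gene here and in every share of all genes tested. Calls over all genes depended on the scaling, with 404 higher and 163 lower under median scaling and 378 higher and 951 lower under spike-in scaling, and 0 of the 80 were called under either. At an unadjusted p under 0.05 there were also 0 of the 80, against 19.2% of all genes, and the smallest adjusted p among the members was 0.393, for Ndufa8.

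The log2 changes of the 79 genes above background on all 4 arrays ran from −0.27 to 0.16 with an SD of 0.069 across genes, against an SD of 0.31 over all genes above background on all 4 arrays. The dim probe of Cox6a2, described with complex IV, widened the range of the 80 tested genes to −0.38 and their SD to 0.081. For 70 of the 80 (87.5%) the change was under 0.1 on the log2 scale in either direction, against 37.2% of all genes tested, and for 78 (97.5%) it was under 0.2, against 61.5%. The median log2 change was 0.011, with 45 positive and 35 negative values, against −0.0061 for all genes tested, but it was 0.16 under median scaling and −0.070 under spike-in scaling, so no direction was read from it. The shares under 0.1 and 0.2 also belong to the reported scaling and were not counted under the others. Under median scaling the median of 0.16 lay above 0.1, so the members under 0.1 could not be a majority there, in contrast to the 87.5% under the reported scaling. Over all genes above background on all 4 arrays the shares under 0.1 and 0.2 were 39% and 64.3%. Brightness was not matched between the members and other genes. These genes were chosen with earlier results known, so the comparison with all genes is a description.

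**Figure D2:**
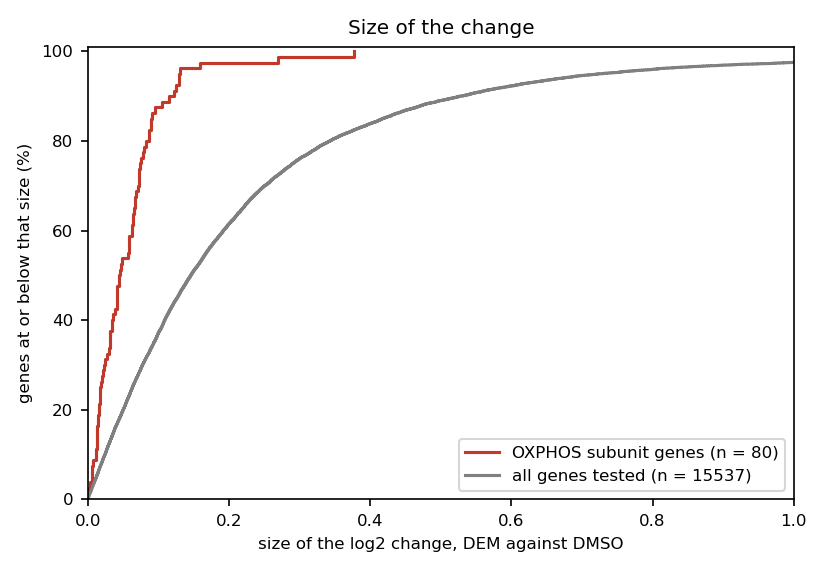
Cumulative share of genes (%) by the size of the log2 change between DEM and DMSO, in either direction, for the 80 oxidative phosphorylation subunit genes (red) and all 15537 genes tested (grey). The red line reaches 87.5% at 0.1 and 97.5% at 0.2, where the grey line stands at 37.2% and 61.5%. Both lines belong to the reported scaling, and other scalings are not drawn. The axis ends at 1 and larger changes are not drawn.

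The 95% intervals of limma give a range of sizes for each gene under the reported scaling. They rest on the spread between replicates, which may be technical. The choice of scaling is not part of them, and it moved the members' median to 0.16 under median scaling and −0.070 under spike-in scaling. The counts of intervals were not repeated under those scalings. The interval of 78 of the 80 genes (97.5%) lay within a 1.5-fold change in either direction, against 65.5% of all genes tested, and that of 54 (67.5%) within 0.32 on the log2 scale, against 17.6%. Brightness was not matched in these shares either. The exceptions to the 1.5-fold limit were Uqcrb of complex III and Cox6a2 of complex IV, whose intervals also crossed a 2-fold change. With 2 samples per group the intervals are wide for single genes, the median SE being 0.092 on the log2 scale, which limits what can be said of any 1 gene.

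**Figure D3:**
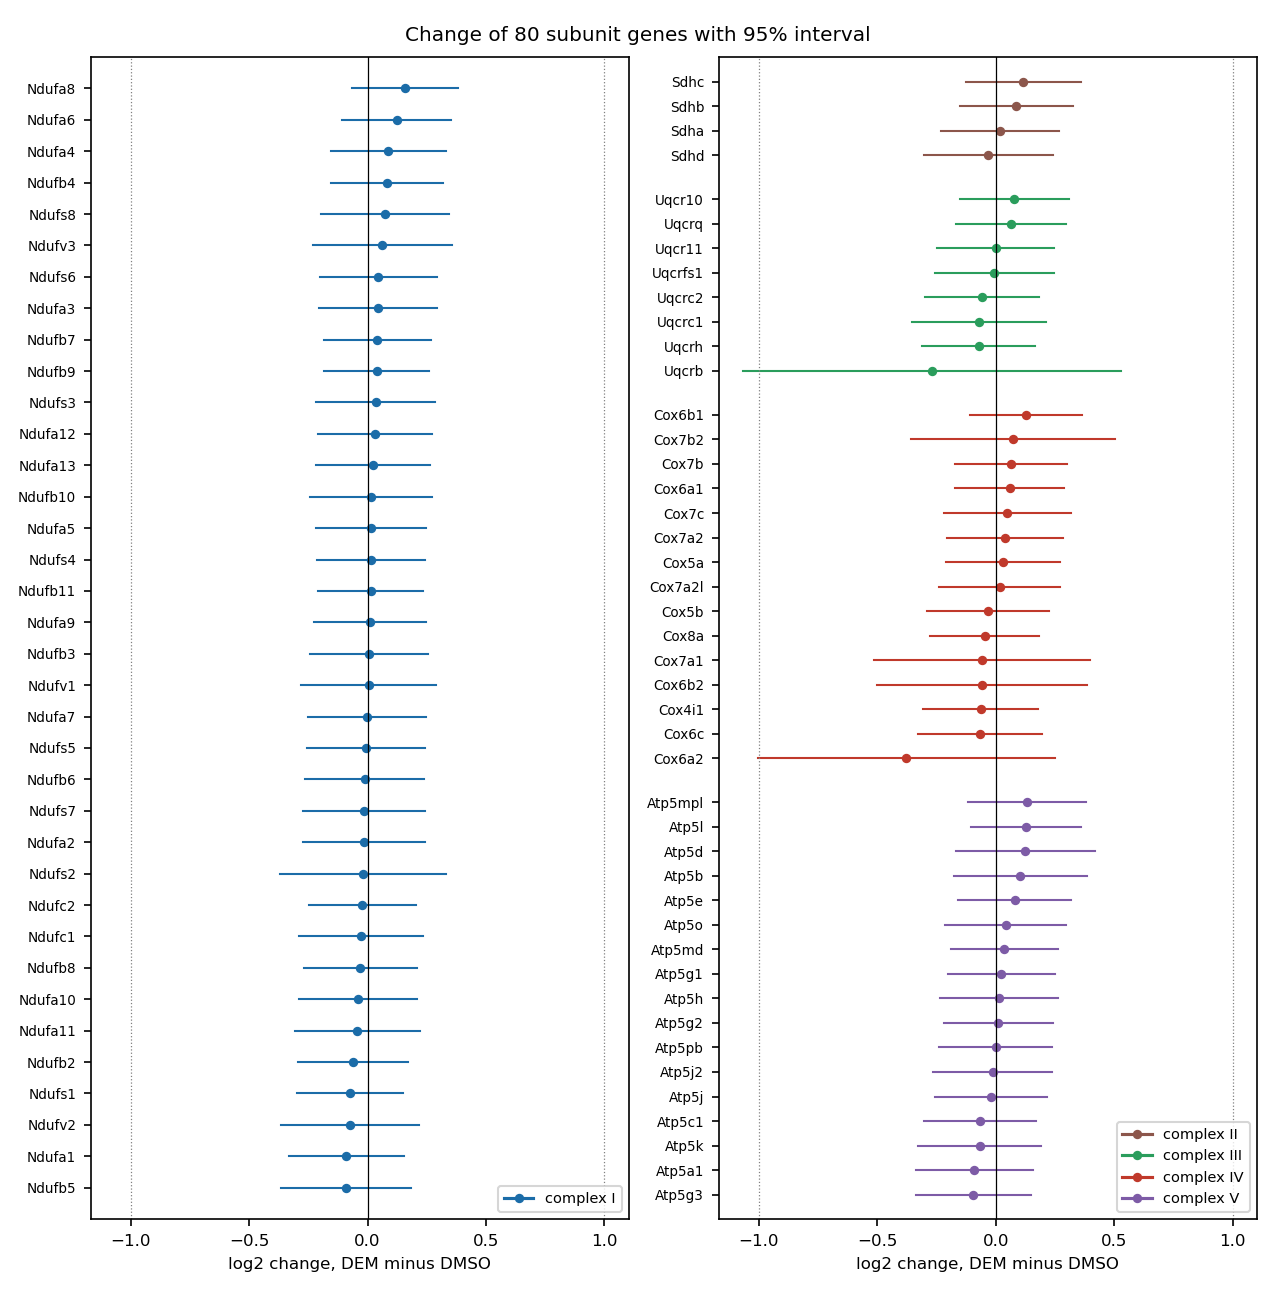
Log2 change of DEM minus DMSO (points) with its 95% interval from limma (lines) for each of the 80 genes, complex I on the left and complexes II to V on the right, with dotted lines at a 2-fold change. Every interval crosses 0; the widest are those of Uqcrb (−1.07 to 0.53) and Cox6a2 (−1.002 to 0.249).

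Complex I, the entry point for NADH, had 36 tested genes with a median log2 change of 0.0086 and a range of −0.09 to 0.16. Its 7 nuclear-encoded catalytic core subunits, which hold the flavin and the iron-sulphur clusters, had a median of −0.015 and a range of −0.07 to 0.07. Among them Ndufs1, the iron-sulphur subunit that is the largest of the complex, had scaled signals of 29520 and 28910 in DEM, against 30980 and 30480 in DMSO. The DEM arrays were both lower than the DMSO arrays, but by a log2 change of only −0.07 ± 0.08 (SE, n = 2 per group, limma adjusted p = 0.702). Ndufv1, which binds the flavin, had 32720 and 33430 in DEM, against 35270 and 30790 in DMSO, and the DEM values lay between the DMSO values. Ndufv2, an iron-sulphur subunit of the NADH-binding arm, had 13360 and 12050 in DEM, against 14050 and 12710 in DMSO, and the groups overlapped.

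The 29 accessory subunits of complex I, which surround the core and are needed for its assembly and stability, had a median log2 change of 0.013. Ndufa8, a subunit on the intermembrane-space side, had scaled signals of 23430 and 23790 in DEM, against 20920 and 21390 in DMSO. Both DEM arrays were above both DMSO arrays, with a log2 change of 0.16 ± 0.08 (limma adjusted p = 0.393), which was not past the threshold. The other Ndufa8 probe had 6389 and 6946 in DEM, against 6734 and 5920 in DMSO, with overlap and a log2 change of 0.08 ± 0.11. Ndufa6 had 2594 and 2670 in DEM, against 2471 and 2366 in DMSO (log2 change 0.12 ± 0.09, limma adjusted p = 0.519). Ndufb4, of the membrane arm, had 30490 and 31620 in DEM, against 30190 and 28510 in DMSO, again without overlap and with a log2 change of 0.08 ± 0.09. At the other end, Ndufa1, a small membrane subunit, had 24970 and 23990 in DEM, against 26900 and 25210 in DMSO, with no overlap and a log2 change of −0.09 ± 0.09. The other Ndufa1 probe had 9428 and 9465 in DEM, inside the DMSO values of 9922 and 8998 (log2 change −3e-04 ± 0.0977). Ndufb5, also of the membrane arm, had 1926 and 2178 in DEM, against 2172 and 2190 in DMSO, and the groups overlapped. Ndufa4 carries a complex I name but is now known as a subunit of complex IV; it had 40950 and 43960 in DEM, against 40550 and 39360 in DMSO (log2 change 0.09 ± 0.09), and counting it with complex IV gave medians of 0.0060 for complex I and 0.024 for complex IV.

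Complex II, which oxidises succinate and is also an enzyme of the citric acid cycle, has 4 subunits, all nuclear, and all were tested. Sdha, the flavoprotein that binds succinate, had scaled signals of 3214 and 2951 in DEM, against 3078 and 3006 in DMSO, and the DMSO values lay inside the DEM values. Sdhb, the iron-sulphur subunit, had 7057 and 7157 in DEM, against 6924 and 6467 in DMSO, without overlap (log2 change 0.09 ± 0.09, limma adjusted p = 0.663). The membrane anchors differed in sign. Sdhc had 5692 and 5982 in DEM, against 5230 and 5548 in DMSO (log2 change 0.12 ± 0.09, limma adjusted p = 0.563), and Sdhd had 11230 and 10840 in DEM, against 11950 and 10640 in DMSO (log2 change −0.03 ± 0.10). The median of the 4 was 0.052.

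Complex III, the cytochrome bc1 complex, had 8 tested genes with a median log2 change of −0.032. The core genes taken by symbol, Uqcrc1, Uqcrc2 and Uqcrfs1, the last encoding the Rieske iron-sulphur protein, ran from −0.07 to −0.0061. Cyc1, the gene of cytochrome c1 in this complex, fell outside the symbol rule and was tested with the electron carriers. It had scaled signals of 42210 and 42260 in DEM, against 42940 and 42670 in DMSO (log2 change −0.02 ± 0.08, limma adjusted p = 0.932). Uqcrfs1 had scaled signals of 16840 and 17770 in DEM, against 18030 and 16740 in DMSO, so that its DEM values lay inside the DMSO values. Of the 5 small subunits, Uqcr10 had 62820 and 64940 in DEM, against 61670 and 59400 in DMSO, and Uqcrq had 86150 and 90940 in DEM, against 85180 and 84200 in DMSO, both without overlap and with log2 changes of 0.08 ± 0.09 and 0.06 ± 0.09. Uqcrh, the hinge protein that contacts cytochrome c1, had 73080 and 72570 in DEM, against 79300 and 73870 in DMSO (log2 change −0.07 ± 0.09). The other Uqcrh probe had 42300 and 42560 in DEM, against 44130 and 40500 in DMSO (log2 change 0.0053 ± 0.0952), and the groups overlapped.

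Uqcrb, a small subunit of complex III near the ubiquinone site, had the largest SE of the 80 genes. It had scaled signals of 1413 and 1736 in DEM, against 2481 and 1436 in DMSO, and the spread came from DMSO replicate 1. The log2 change was −0.27 ± 0.30 (limma adjusted p = 0.689). Leaving out DMSO replicate 1 gave 0.13 (limma adjusted p = 0.814). Leaving out DMSO replicate 2 gave −0.66 (limma adjusted p = 0.347).

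Complex IV, cytochrome c oxidase, exists with tissue-specific isoforms of several subunits. Of the 7 isoform genes known from particular tissues, Cox7a1, Cox6b2 and Cox7b2 were well above background on all 4 arrays, Cox6a2 on 3, Cox8c on 1, and Cox4i2 and Cox8b on 0. The 11 genes counted as ubiquitous subunits, with Cox7a2l among them by its symbol alone, were well above background on all 4 arrays. Their median log2 change was 0.031. Cox4i1, the ubiquitous form of subunit 4, had scaled signals of 118100 and 125500 in DEM, against 130500 and 124000 in DMSO, while the probe of Cox4i2, the form known from lung, was well above background on 0 arrays. Cox8a had 108400 and 110400 in DEM, against 115600 and 110500 in DMSO, while Cox8b, the heart and muscle form in mouse, was well above background on 0 arrays and the testis form Cox8c on 1, DMSO replicate 1. Cox6a1 had 189700 and 195700 in DEM, against 188300 and 181800 in DMSO, and its muscle partner Cox6a2 had 10.8 and 16.3 in DEM, against 18.9 and 15.7 in DMSO, well above background on 3 of the 4 arrays.

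The array on which Cox6a2 was not well above background was DEM replicate 1, its lowest value, so its log2 change of −0.38 ± 0.23 (limma adjusted p = 0.463) is not a measured size. Without that array the change was −0.084, and without DEM replicate 2 it was −0.67. Cox7a1, the muscle form of subunit 7a, had 521.8 and 449.7 in DEM, against 575.8 and 441.1 in DMSO. The testis form Cox6b2 had 28.2 and 33.3 in DEM, against 36.0 and 28.3 in DMSO, and the testis form Cox7b2 had 61.2 and 47.1 in DEM, against 53.8 and 48.5 in DMSO. In all 3 the groups overlapped. Their ubiquitous partners were Cox7a2 (18680 and 19570 in DEM, against 19230 and 17980 in DMSO), Cox6b1 and Cox7b. Signals of different probes are not on a common scale, so these values do not rank the isoforms.

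The remaining extremes of complex IV were small. Cox6b1, which caps the complex on the intermembrane-space side, had 1471 and 1556 in DEM, against 1405 and 1364 in DMSO, with no overlap and a log2 change of 0.13 ± 0.09 (limma adjusted p = 0.506). Cox7b had 16650 and 17770 in DEM, against 16540 and 16320 in DMSO (log2 change 0.07 ± 0.09). Cox6c had 20130 and 22080 in DEM, against 22710 and 21490 in DMSO, and the groups overlapped (log2 change −0.07 ± 0.10).

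Complex V, the ATP synthase, had 17 tested genes with a median log2 change of 0.012 and a range of −0.09 to 0.13. The 5 subunits of its F1 head and central stalk had a median of 0.08. Atp5a1, the alpha subunit, had scaled signals of 89060 and 89740 in DEM, against 99220 and 91220 in DMSO, while Atp5d, the delta subunit of the central stalk, had 16940 and 17670 in DEM, against 17040 and 14770 in DMSO. The first did not overlap and the second did, with log2 changes of −0.09 ± 0.09 and 0.12 ± 0.11. The other Atp5a1 probe had 44140 and 46370 in DEM, against 46520 and 45150 in DMSO (log2 change −0.02 ± 0.09), and the groups overlapped. The 3 genes Atp5g1, Atp5g2 and Atp5g3 encode the same mature c subunit of the rotor ring: Atp5g3 had 49760 and 49080 in DEM, against 54790 and 50830 in DMSO (log2 change −0.09 ± 0.09), and the log2 changes of Atp5g1 and Atp5g2 were 0.024 and 0.011.

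The 4 genes of the peripheral stalk of complex V, which holds the head still, ran from −0.019 to 0.041 and overlapped between the groups. The 5 small membrane subunits ran from −0.07 to 0.13. Atp5mpl had 12100 and 12750 in DEM, against 11760 and 10950 in DMSO (log2 change 0.13 ± 0.09, limma adjusted p = 0.524). Atp5l, subunit g, had 18100 and 17360 in DEM, against 16540 and 15910 in DMSO (log2 change 0.13 ± 0.09, limma adjusted p = 0.502), and the groups of both genes did not overlap. Atp5k, subunit e, had 8673 and 8642 in DEM, against 9574 and 8606 in DMSO, where only DMSO replicate 1 stood above the DEM values.

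Most of the differences were smaller than the larger gap between replicates, a measure that by its make-up favours the gap. It sets a difference between means of 2 arrays against the larger of 2 differences between single arrays. In 70 of the 80 genes (87.5%) the log2 change was smaller than the larger of the 2 replicate gaps, the difference between replicates 1 and 2 within DEM or within DMSO, against 60.5% of all genes tested. The gap lay mainly within DMSO and ran one way: DMSO replicate 1 was above DMSO replicate 2 in 75 of the 80 genes (93.8%), by a median of 0.099 on the log2 scale, against 59.0% and 0.042 for all genes tested. The median deviation of the 80 genes from their own 4-array means was −0.013 and 0.022 in DEM replicates 1 and 2, against 0.048 and −0.055 in DMSO replicates 1 and 2. Both DEM arrays thus lay between the DMSO arrays, and the same order held within complexes I, III and V; in complex II DEM replicate 1 and in complex IV DEM replicate 2 lay above both DMSO arrays.

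**Figure D4:**
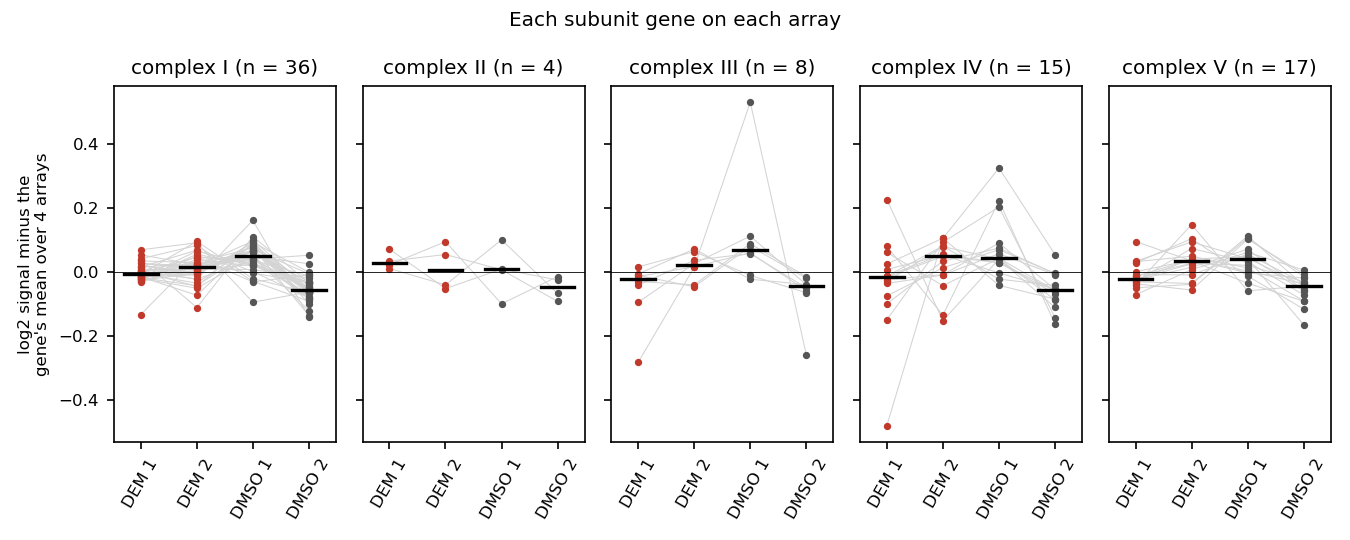
Deviation of each gene's log2 signal from its own mean over the 4 arrays, by complex, with DEM arrays in red, DMSO arrays in grey, a line per gene and a black bar at the median. DMSO replicate 2 has the lowest median in every panel, and the single high point in complex III is Uqcrb on DMSO replicate 1.

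The DEM and DMSO values did not overlap for 24 of the 80 genes (30.0%), against 50.6% of all genes tested. DEM was the higher group in 17 of them (21.2%, against 24.9%) and the lower in 7 (8.75%, against 25.6%). These counts moved with the scaling and with the DMSO arrays. Under median scaling 40 members (50%) were higher and 0 lower, against 44.3% and 11.6% of all genes tested. Under spike-in scaling 0 were higher and 26 (32.5%) lower, against 12.5% and 31.6%. Without DMSO replicate 1 the members were 60 higher (75%) and 8 lower (10.0%), against 40.0% and 34.6%, and without DMSO replicate 2 they were 17 higher (21.2%) and 45 lower (56.2%), against 34.2% and 42.9%. By complex, groups without overlap were 9 of 36 in complex I, 2 of 4 in complex II, 3 of 8 in complex III, 4 of 15 in complex IV and 6 of 17 in complex V.

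More than 1 probe was tested for 16 of the genes, 36 probes in all, and 0 of these probes were called. The log2 changes of a gene's probes lay a median of 0.074 apart, and in 8 of the 16 genes they differed in sign. The widest gap was in Ndufa12, an accessory subunit of complex I. Its brightest probe had 42400 and 44770 in DEM, against 43730 and 41630 in DMSO, while a dimmer probe had 1433 and 2088 in DEM, against 1425 and 1384 in DMSO. The dim probe's log2 change of 0.30 ± 0.20 rested on DEM replicate 2. The brightest probe of Ndufv3 gave 0.06 and the dimmer ones −0.18 and −0.15.

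The log2 changes were also set beside the promoter motifs, as a description. The 17 tested genes with an NRF1-type match had a median log2 change of 0.012, against 0.014 for the 50 without. The 17 with an ETS-type match had 0.033, against 0.012, and the 10 with a YY1-type match 0.0044, against 0.015 (57 genes). The 9 genes with an antioxidant response element match, Atp5o, Cox5b, Ndufa1, Ndufa7, Ndufa9, Ndufa10, Ndufa11, Ndufs5 and Ndufv2, ran from −0.09 to 0.041 with a median of −0.034, against 0.016 for the 58 without. Atp5o, a peripheral stalk subunit whose promoter is shown above, had 27010 and 29010 in DEM, against 28190 and 26240 in DMSO.

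Genes that serve the same pathway were also not called, but with 1.22% of all genes tested called, 0 calls in lists this short is near the background. Of 48 listed factors that assemble the complexes, 43 were tested, 0 were called and 0 had an unadjusted p under 0.05 in limma, against 19.2% of all genes tested. Their median log2 change was 0.0010, and 38 of the 43 were under 0.2 in either direction, against 61.5% of all genes tested. The highest were Uqcc1, an assembly factor of complex III (5876 and 5741 in DEM, against 5160 and 4845 in DMSO), and Cox14, of complex IV (13840 and 16160 in DEM, against 13050 and 12910 in DMSO). The lowest were Atpaf1, which helps assemble the ATP synthase head (5237 and 4587 in DEM, against 6625 and 5496 in DMSO, log2 change −0.30 ± 0.14), and Coa7, of complex IV (3359 and 3222 in DEM, against 4084 and 3699 in DMSO). Of 20 electron carriers, transporters and uncoupling genes, 14 were tested, with 0 calls, 0 unadjusted p under 0.05 and a median of −0.021. Among them Etfdh, which feeds electrons from fatty acid oxidation to ubiquinone, had 5498 and 5099 in DEM, against 4752 and 4318 in DMSO, and Ndufab1, the acyl carrier protein of complex I, had 8276 and 8743 in DEM, against 8577 and 7624 in DMSO. Coq5, of ubiquinone synthesis, had 4801 and 4135 in DEM, against 5649 and 4897 in DMSO, and the phosphate carrier gene Slc25a3 had 43950 and 48980 in DEM, against 50910 and 50110 in DMSO. None of the 13 mitochondrially encoded subunits was matched to a probe by accession, and they were not analysed here.

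Regulators of mitochondrial biogenesis ranged from −0.81 to 0.38 on the log2 scale. Of 18 listed, 15 were tested and limma called 0, where 1.22% of all genes were called. Among the 15, 4 had an unadjusted limma p under 0.05, where 19.2% of all genes had one. Ppargc1b, the coactivator PGC-1 beta, had scaled signals of 532.4 and 451.7 in DEM, against 888.6 and 829.6 in DMSO. Both DEM arrays were well below both DMSO arrays, a 1.75-fold lower level (log2 change −0.81 ± 0.12, 95% interval −1.13 to −0.49, limma adjusted p = 0.0704). Its second probe had 157.8 and 137.5 in DEM, against 285.9 and 261.4 in DMSO (log2 change −0.89 ± 0.12). The adjusted p of Ppargc1b passed the threshold under 5 of 15 alternatives, with log2 changes from −0.93 to −0.66 over the 15. These alternatives are not equal checks. The deposited value table repeats the reported values. Fits without an array keep a single array in a group, and with no filter on dim probes limma called 0 of all genes. With all 4 arrays kept, the limma adjusted p ran from 7.97e-04 under spike-in scaling to 0.267 with no filter on dim probes. Spike-in scaling also gave Hmox1 a limma adjusted p of 4.21e-33, against 0.00442 as reported, so its p-values are not taken at face value.

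The factors named for the motifs were measured too. Gabpa, the subunit of GABP that binds the ETS motif, had 878 and 881.3 in DEM, against 903.6 and 746.9 in DMSO, with the DEM values inside the DMSO values (log2 change 0.10 ± 0.12, limma adjusted p = 0.732). The Nrf2 gene Nfe2l2 showed 9438 and 10540 in DEM, against 9623 and 9680 in DMSO, with the DMSO values inside the DEM values (0.05 ± 0.10, limma adjusted p = 0.845). Gabpb1, the beta subunit of GABP, which does not itself bind DNA, had 567.3 and 548.1 in DEM, against 430.4 and 424.6 in DMSO, without overlap (log2 change 0.38 ± 0.08, limma adjusted p = 0.125), and its other probe had 506.3 and 611.3 in DEM, against 286.9 and 308.9 in DMSO (0.90 ± 0.13, adjusted p = 0.0658 with every probe tested on its own). Nrf1 had 407.5 and 425.6 in DEM, against 349.7 and 340.9 in DMSO (0.27 ± 0.09, limma adjusted p = 0.210), but its other probe gave 0.06 ± 0.10. Yy1, chosen after its values were seen, had 1791 and 1957 in DEM, against 1574 and 1539 in DMSO (0.27 ± 0.09, limma adjusted p = 0.240). Tfam, which packs and transcribes mitochondrial DNA, had 7357 and 7177 in DEM, against 8388 and 7893 in DMSO (−0.16 ± 0.09, limma adjusted p = 0.405). None of these 6 genes passed the threshold.

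**Figure D5:**
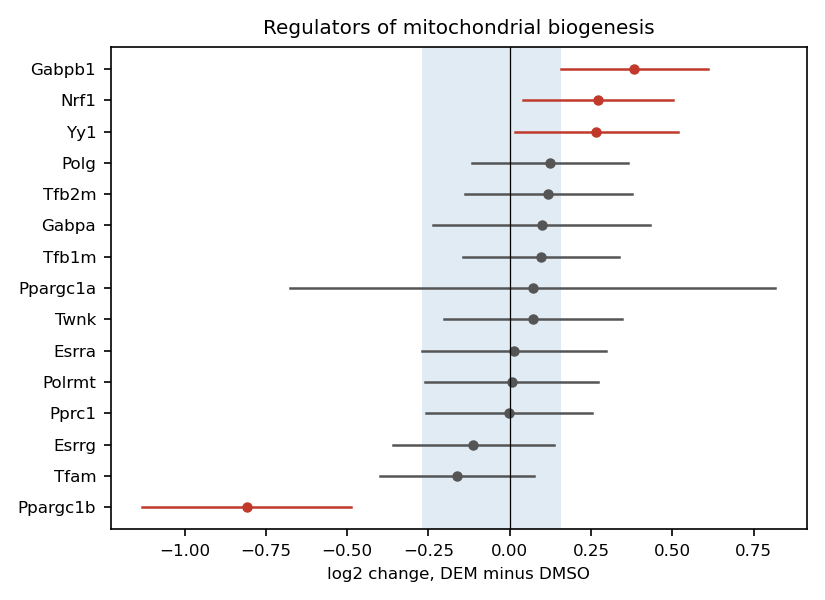
Log2 change of DEM minus DMSO with its 95% interval from limma for the 15 tested regulators of mitochondrial biogenesis; red marks an unadjusted p under 0.05 and the shaded band spans the log2 changes of the 79 subunit genes above background on all 4 arrays (−0.27 to 0.16). Gabpb1, Nrf1 and Yy1 lie to the right of the band and Ppargc1b to its left, at −0.81.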

How the data were processed

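Total RNA, 500 ng per sample, was amplified and labelled with Cy3, per the labels' protocols. These mention liver tissue at the extraction step, while the other labels name the cell line. Per the file headers, Agilent Feature Extraction 10.7.3.1 (protocol GE1_107_Sep09, design annotated on mm9) made the deposited intensity values, the processed signals after background subtraction, and the flags. All 4 arrays had 1 slide and 1 scan time, so neither could be tested as a batch. The authors' deposited value table held the same intensity.

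Each array's signals were put on a log2 scale and its 75th percentile over 43379 non-control spots subtracted. Outlier spots were dropped and the spots of a probe averaged. Accessions were named through RefSeq (GRCm38.p6, 26690 of 41174 probes), and the tested probe with the highest mean stood for a gene. Probes without a symbol were grouped by their name on the array, and each such name counted as a gene. Scaled signal adds back the mean 75th percentile. The fit was limma 3.58.1 in R 4.3.3 over 15537 genes (lmFit and eBayes, Benjamini-Hochberg), tested on simulated data. Values after ± are SEs with n = 2 per group.

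The members, lists, motifs and the rule for named genes (per complex, the highest and lowest log2 changes among genes above background on all 4 arrays, every complex II gene, tissue isoforms, treatment targets, and the extremes of each related list) were chosen with earlier results of these data known. The small number of arrays limits the precision. No probe was matched for Ndufa4l2, Ndufb1, Ndufb4b, Ndufb4c and the pseudogenes Ndufa11b, Ndufs6b and Cox6c2.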

Additional observations from a re-analysis of the deposited data

How the results depend on the processing

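None of the members was called under any of the 16 alternatives, from normexp to leaving out an array, and 0 to 4 of them had an unadjusted p under 0.05 in limma. Over all genes, limma called 111 higher and 79 lower in the values reported, 437 and 370 after normexp, 61 and 32 under quantile normalization, 404 and 163 under median scaling, 378 and 951 under spike-in scaling, 230 and 196 with the filter on all 4 arrays, 415 and 311 with an intensity trend, 492 and 390 with the trend and robust fitting, 74 and 69 with the replicate block, 69 and 52 without DEM replicate 1 and 64 and 38 without DEM replicate 2. In 3 alternatives (no filter on dim probes, without DMSO replicate 1, without DMSO replicate 2) limma called 0 of all genes, with 3165, 2113 and 2015 genes at an unadjusted p under 0.05, so they say nothing about the members. Median scaling used the arrays' median signals, 18.3 and 16.2 in DEM, against 18.6 and 18.4 in DMSO. Only 50.4% to 52.6% of probes were well above background, so these medians lay near the limit of that flag. Median scaling moved the median of all genes to 0.14 on the log2 scale and spike-in scaling to −0.088. Both move all genes alike, so the members' median had to stay 0.017 above that of all genes, which tests nothing. Among the settings that could change this gap, it ran from −0.021, with DMSO replicate 2 left out, to 0.042, with DMSO replicate 1 left out. It was −0.0076 under quantile normalization, −0.0035 with no filter on dim probes and 0.0225 after normexp. The member medians were 0.16 under median scaling (complexes I to V 0.15, 0.20, 0.11, 0.16 and 0.16) and −0.070 under spike-in scaling (−0.073, −0.029, −0.11, −0.065 and −0.070). The complex II median was 0.018 under quantile normalization and 0.018 with every probe on its own. Members without overlap were 40 higher and 0 lower under median scaling and 0 and 26 under spike-in scaling, with the all-gene shares given above. Those lower were 13 (16.2%, against 30.3% of all genes) after normexp, 20 (25.0%, against 26.3%) under quantile normalization and 4 (5.00%, against 26.4%) with the mean of a gene's probes.

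Leaving out each array in turn gave medians of −0.043 to 0.057 for all members, −0.052 to 0.055 for complex I, 0.019 to 0.078 for complex II and −0.084 to 0.053 for complex III, with 17 to 60 members without overlap higher (34.2% to 40.0% of all genes) and 8 to 45 lower (34.6% to 42.9%). Without DMSO replicate 1 the 60 were higher, and without DMSO replicate 2 the 45 were lower. Log2 changes ran from −0.15 to 0.0087 for Atp5k, −0.23 to 0.11 for Cox6b2, −0.25 to 0.13 for Cox7a1, −0.0078 to 0.089 for Cox7a2, −0.12 to 0.26 for Cox7b2, −0.012 to 0.16 for Ndufab1, −0.044 to 0.079 for Sdha, −0.12 to 0.052 for Sdhd and −0.66 to 0.13 for Uqcrb.

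Median and spike-in scaling shift every gene by the same amount, so values nearer 0 than the shift can change sign. The cause under the other settings was not tested. Signs of other values turned, all without a call and including Cox6b1, at 0.13 as reported, and Slc25a3, at −0.12. Under median scaling, which shifts all genes upward, they were Atp5a1 0.055, Atp5g3 0.050, Atp5k 0.077, Cox4i1 0.082, Cox6b2 0.087, Cox6c 0.078, Cox7a1 0.088, Cox8a 0.098, Ndufa1 0.056, Ndufb5 0.055, Ndufs1 0.072, Ndufv2 0.070, Sdhd 0.11, Slc25a3 0.023 and Uqcrh 0.074. Under spike-in scaling they were Cox6a1 −0.023, Cox7a2 −0.041, Cox7b −0.016, Cox7b2 −0.0098, Ndufab1 −0.0088, Sdha −0.064, Uqcr10 −0.0040 and Uqcrq −0.018. After normexp they were Cox4i1 0.10, Cox6a1 −0.049, Cox6b1 −0.0036, Cox6c 0.073, Cox7a2 −0.019, Cox7b −0.017, Ndufb4 −0.033, Ndufs1 0.045, Sdha −0.0077, Uqcrh 0.040 and Uqcrq −0.051. Quantile normalization gave Cox6b2 0.030 and Sdha −0.013, and the mean of a gene's probes gave Sdha −0.015. Ppargc1b was called after normexp, under spike-in scaling, with the filter on all 4 arrays and with both intensity trends. The replicate number was not shown to pair the samples, the deviations of same-numbered samples correlating at 0.138 over all genes. With the replicate block 0 members were called, and the members' median stayed at 0.011. Normexp used the median spot signal.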
